A study of Bos taurus with 16 samples.

Results

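The comparison concerns kidney RNA of cattle (Bos taurus) after 2 rounds of linear amplification, set against unamplified total kidney RNA. It rests on 8 of the 16 arrays of the series: the 4 arrays labelled round 2 and the 4 labelled round 0, chosen by that label. Each round has 2 kidney RNAs, called replicates 1 and K, and each RNA was hybridised on 2 arrays of a custom cDNA array with the dyes Cy3 and Cy5 exchanged. The second channel of every array held a reference RNA, which the labels describe as amplified for 2 rounds; its tissue is not named. The comparison asks how far measured ratios move when the sample is amplified before labelling. Round 0 therefore sets unamplified kidney RNA against an amplified reference, and round 2 sets both channels at the same number of rounds.

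All RNA was isolated with Trizol and reverse transcribed with Superscript III; the cDNA took up amino-allyl dUTP, and the dyes were attached to that base. No breed, age or sex is given. Whether replicates 1 and K come from different animals is not stated either, and p-values then cover no more than the spread among these RNAs, which may be technical. Between 84.3% and 95.0% of the 16896 spots on these 8 arrays had a ratio. The 16896 spots are 8448 cDNA clones printed as duplicates, here called features, and duplicates on an array correlated at 0.541 to 0.868.

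As background, linear amplification copies messenger RNA into cDNA from an oligo dT primer that carries a T7 promoter, and then transcribes many antisense RNA copies from that template. A further round starts from the antisense RNA with random primers, which tends to leave shorter copies that lie toward the end of the transcript that carries the poly(A) tail. Its use is the study of samples too small to label directly, where what matters is whether ratios between samples are kept. The kidney is a useful test tissue because its tubule cells express brush border peptidases, transporters and water channels that most tissues lack.

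Values below are log2 ratios, kidney over reference, with the median of each array set to 0, so that 1 unit is a 2-fold ratio. That kidney lies over the reference is likely rather than stated: the direction was chosen so that kidney genes lie above the reference, and every sign would turn with it. A ratio of 0 is thus the median of the array, not equality with the reference RNA. Each RNA's value is the mean of its dye swap. Where array values are given, they come in the order replicate 1 with kidney in Cy5, replicate 1 in Cy3, replicate K in Cy5 and replicate K in Cy3. A feature was called where limma's adjusted p for round 2 against round 0 was under 0.05 over all 5537 features tested.

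The kidney label was checked on the proximal tubule, the nephron segment that reabsorbs most of the filtrate; that its genes lie above the reference follows from the direction chosen. ENPEP, the brush border peptidase glutamyl aminopeptidase, had ratios of 5.60 and 5.55 in the RNAs of round 0 and 5.39 and 5.32 in those of round 2. AQP1, the water channel of proximal tubule and thin descending limb, read 4.44 and 4.43 at round 0 and 4.51 and 4.68 at round 2. DPP4, a dipeptidyl peptidase, read 4.75 and 4.31 and then 3.78 and 4.25. These genes lie far from the median ratio, on the same side, in both rounds. The differences for these genes were -0.22 (SE 0.24) for ENPEP, 0.16 (SE 0.26) for AQP1 and -0.51 (SE 0.42) for DPP4, and none passed the test. They were chosen with earlier results of these data known and do not stand for all tubule genes. Among the 16 tubule features tested, 43.8% were called, against 11.2% over all features, and the median difference was -0.53.

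Ratios differed more between rounds 0 and 2 than between the RNAs of a round. The median size of the difference between rounds was 0.539 over 5537 features, against 0.211 between replicates 1 and K at round 0 and 0.331 between them at round 2. Taken in each replicate alone, it was 0.562 for replicate 1 and 0.612 for replicate K. A difference of at least 1 was found for 1268 features (22.9%) between rounds, for 487 (8.80%) between the RNAs of round 0 and for 659 (11.9%) between those of round 2. The single arrays of a dye swap differed by a like size: their median difference was 0.344 and 0.419 for the RNAs of round 0, and 0.698 and 0.552 for replicates 1 and K of round 2. After turning to kidney over reference, the dye-swap arrays correlated across features at 0.663 and 0.655 at round 0 and at 0.435 and 0.548 at round 2. Rounds 1 and 3, which enter only the spread used for the calls, had 0.575 and 0.235 and then 0.348 and 0.517 for replicates 1 and K. These correlations are descriptions, since the points of an array share its labelling and hybridisation.

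**Figure D1:**
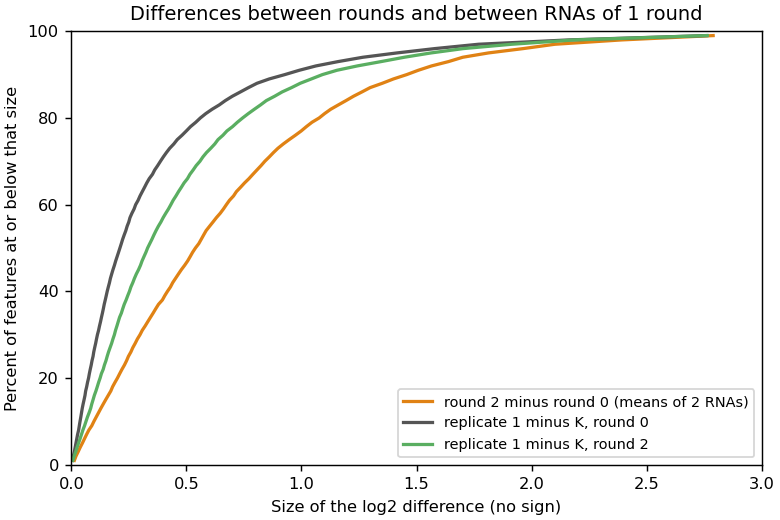
Cumulative share of the 5537 tested features (y axis, percent) at or below a given size of log2 difference (x axis), for the mean difference of round 2 minus round 0 and for replicate 1 minus replicate K within each of these rounds. The line between rounds lies to the right, with a median of 0.539 against 0.211 and 0.331 within rounds.

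Of 5537 features, 619 were called (11.2%): 243 were higher at round 2 (4.39%) and 376 were lower (6.79%). Of these, 554 also changed at least 2-fold (10.0%), and 1709 features had an unadjusted p under 0.05. The 619 calls had the same sign in replicates 1 and K, and 601 of the 609 with values in both dyes had the same sign in both dye orientations. These signs come from the same values as the calls, so the agreement is a description. Among the 548 calls with a value on all 8 arrays, 497 had arrays of round 2 that did not overlap those of round 0. The background for that count was 1172 of 4848 features (24.2%), and the RNAs of the rounds did not overlap for 3563 of 5537 features (64.3%). An exact test of 2 against 2 RNAs cannot pass 0.05, so the calls rest on a spread pooled over the 8 RNAs of rounds 0 to 3. With the contrast fitted on rounds 0 and 2 alone, 148 features passed. Without the round 1 replicate 1 Cy3 array, which enters that spread but not the contrast, 340 passed. With 16 arrays fitted singly, a dye term and RNA as a random block, 1244 did. The correlation between arrays of an RNA was estimated at -0.079 in that fit. It thus counts the 2 arrays of a dye swap about as separate replicates, and its higher count is no added support. Without round 2 replicate 1, 24 passed, and 53 passed without round 2 replicate K. Without round 0 replicate 1 the count was 175, and without round 0 replicate K it was 108. With arrays not centred it was 67. Naming rules, given below, were met by 114 called features, not all of which are written out here. Most of these lost their call when any 1 of the 4 RNAs was left out, and 29 kept it with arrays not centred.

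A called feature most often started on one side of the array median and ended on the other. Of the 243 called higher, 203 (83.5%) lay below the array median at round 0, and 157 (64.6%) went from below to above it. Their median ratio went from -0.83 to 0.75. Of the 376 called lower, 314 (83.5%) lay above the array median at round 0 and 241 (64.1%) went from above to below it, with a median ratio of 0.84 and then -0.64. Over all features tested, 847 (15.3%) went from above to below and 967 (17.5%) from below to above. These positions use the same values as the calls and are a description. The share of features nearer the array median at round 2 than at round 0 was 51.9% over all tested features, with 135 of the 243 called higher and 214 of the 376 called lower.

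**Figure D2:**
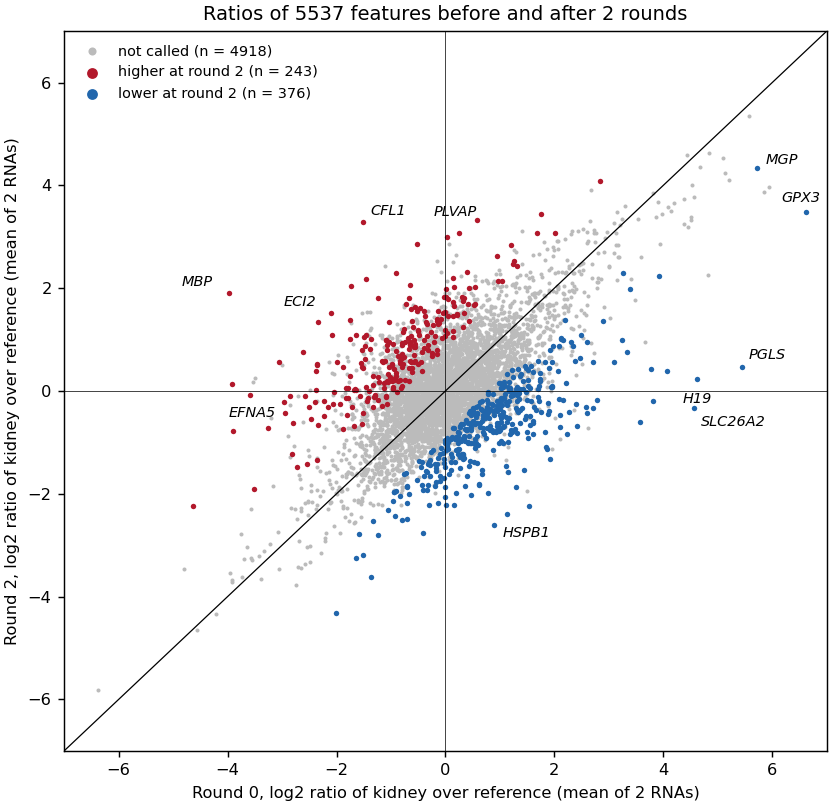
Mean log2 ratio of kidney over reference at round 0 (x axis) and round 2 (y axis) for the 5537 tested features, with the 243 called higher and the 376 called lower coloured and the diagonal of equal ratios drawn. Most called features lie to the upper left and lower right, where the sign of the ratio changes, while MGP and GPX3 stay well above the array median in both rounds.

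The largest increase among called features with 1 symbol and a value on all 8 arrays was that of CFL1, which encodes cofilin, a protein that severs and depolymerises actin filaments. CFL1 read -1.29, -1.64, -1.33 and -1.79 on the arrays of round 0 and 3.73, 2.92, 3.54 and 2.96 on those of round 2. Every array of round 0 lies below the array median and every array of round 2 well above it. The means went from -1.51 ± 0.07 to 3.29 ± 0.06 (SD, n = 2 each), a rise of 4.80 (SE 0.21, adjusted p = 0.0009 by limma). Its mean ratio was 3.66 at round 1 and 3.20 at round 3. A difference of either round from round 0 would share the round 0 arrays with this comparison.

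ECI2, an enoyl-CoA isomerase that lets unsaturated fatty acids enter beta-oxidation, read -2.30, -2.08, -1.78 and -2.25 at round 0 and 1.22, 1.37, 1.71 and 1.75 at round 2. The array groups lie on opposite sides of the array median and do not overlap, and the rise was 3.62 (SE 0.28, adjusted p = 0.004 by limma). Another ECI2 clone lay above the array median already at round 0, at 1.57 and 1.88, and gave 0.94 (SE 0.36), not called. EFNA5, a membrane-bound ephrin ligand of Eph receptors, read -3.33, -3.34, -4.04 and -3.64 at round 0 and -0.16, 0.16, -0.23 and -0.08 at round 2. The round 2 arrays are all near the array median, and the rise was 3.51 (SE 0.26). WDR41, a WD repeat protein, went from -2.12, -2.28, -2.82 and -3.27 to 1.25, 0.88, 0.44 and 0.45. USP19, a deubiquitinating enzyme, went from -0.83, -0.88, -2.89 and -0.31 to 1.98, 2.08, 1.62 and 1.54. Neither WDR41 nor USP19 had overlapping arrays; their rises were 3.38 (SE 0.38) and 3.04 (SE 0.34), and each lost its call without round 2 replicate 1.

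Other increases of the same rank were less even between dyes. REXO5, an RNA exonuclease, read -2.48, -2.31, -2.32 and -2.29 at round 0 but -1.50, 2.44, -0.46 and 1.61 at round 2. The round 2 arrays with kidney in Cy5 stayed below the array median and those in Cy3 lay above it. PTK2B, a calcium-responsive tyrosine kinase, read -0.92, 0.52, -1.06 and 1.10 at round 2 after -3.40, -2.68, -2.71 and -2.65. PDXP, a pyridoxal phosphate phosphatase, had the only overlapping arrays among the 24 genes named for the largest changes: -5.51, -1.22, -1.48 and -1.33 at round 0 against -1.88, 2.07, 0.18 and 1.18 at round 2. The rises were 2.87 (SE 0.48), 2.77 (SE 0.50) and 2.77 (SE 0.67), and each was called. ADA, the purine enzyme adenosine deaminase, rose by 3.14 (SE 0.61), with single arrays from -3.64 to -0.04 and then from 0.20 to 3.17, while its other clone gave 0.29 (SE 0.29) and was not called. Calls of REXO5, PTK2B and ADA were lost when any 1 of the 4 RNAs was left out, and that of PDXP without round 0 replicate 1 or either RNA of round 2.

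The decreases reached the same size. PGLS encodes 6-phosphogluconolactonase of the oxidative pentose phosphate pathway, which makes NADPH. PGLS read 5.44, 4.86, 5.27 and 6.21 on the arrays of round 0 and 0.86, 0.31, 0.52 and 0.20 on those of round 2. The round 2 arrays lie just above the array median and far below every round 0 array. The difference was -4.97 (SE 0.26, adjusted p = 0.001 by limma), and the mean ratio was 0.51 at round 1 and 0.61 at round 3. A second PGLS clone gave another picture, with -0.47 and -0.58 in the RNAs of round 0 and 0.49 and 0.18 in those of round 2, a difference of 0.86 (SE 0.39) that was not called.

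SLC26A2, a sulfate transporter, read 4.31, 4.21, 4.20 and 5.55 at round 0 and -0.33, 0.41, -2.17 and 0.75 at round 2. RABGAP1, a GTPase-activating protein for Rab proteins of vesicle traffic, read 3.81, 3.93, 3.65 and 3.87 at round 0 and -0.04, -0.25, -0.32 and -0.14. SMTN, smoothelin of contractile smooth muscle, read 1.27, 1.34, 0.46 and 2.14 and then -1.72, -1.95, -1.73 and -2.09. None of these genes had overlapping arrays, and the round 2 arrays of RABGAP1 spread over less than 0.3 units around the array median. The differences were -4.90 (SE 0.78) for SLC26A2, -4.0 (SE 0.30) for RABGAP1 and -3.17 (SE 0.19) for SMTN. The other RABGAP1 clone, at 0.48 and 0.42 and then 0.36 and 0.60, gave 0.03 (SE 0.32) and was not called. SLC26A2 lost its call when any 1 of the 4 RNAs was left out.

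The other large decreases included a junction protein and a phosphatase regulator. PPP1R35, a regulatory subunit of protein phosphatase 1, read 2.39, 2.83, 2.66 and 3.00 at round 0 and 0.07, -0.69, -0.11 and -0.60 at round 2. PERP, a desmosomal protein and p53 target, read 2.32, 2.92, 2.46 and 2.72 and then -0.01, -1.01, -0.06 and -0.60. Both sets of arrays stand apart, with round 2 close to the array median. CCDC186, a coiled-coil protein, fell by 3.09 (SE 0.33) and CLEC18C, a C-type lectin, by 3.24 (SE 0.58). CLEC18C had 1 array of round 0 far above the other arrays, at 4.85 against 0.50 to 1.40. Its call was lost without either RNA of round 2, and that of CCDC186 without round 2 replicate 1.

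**Figure D3:**
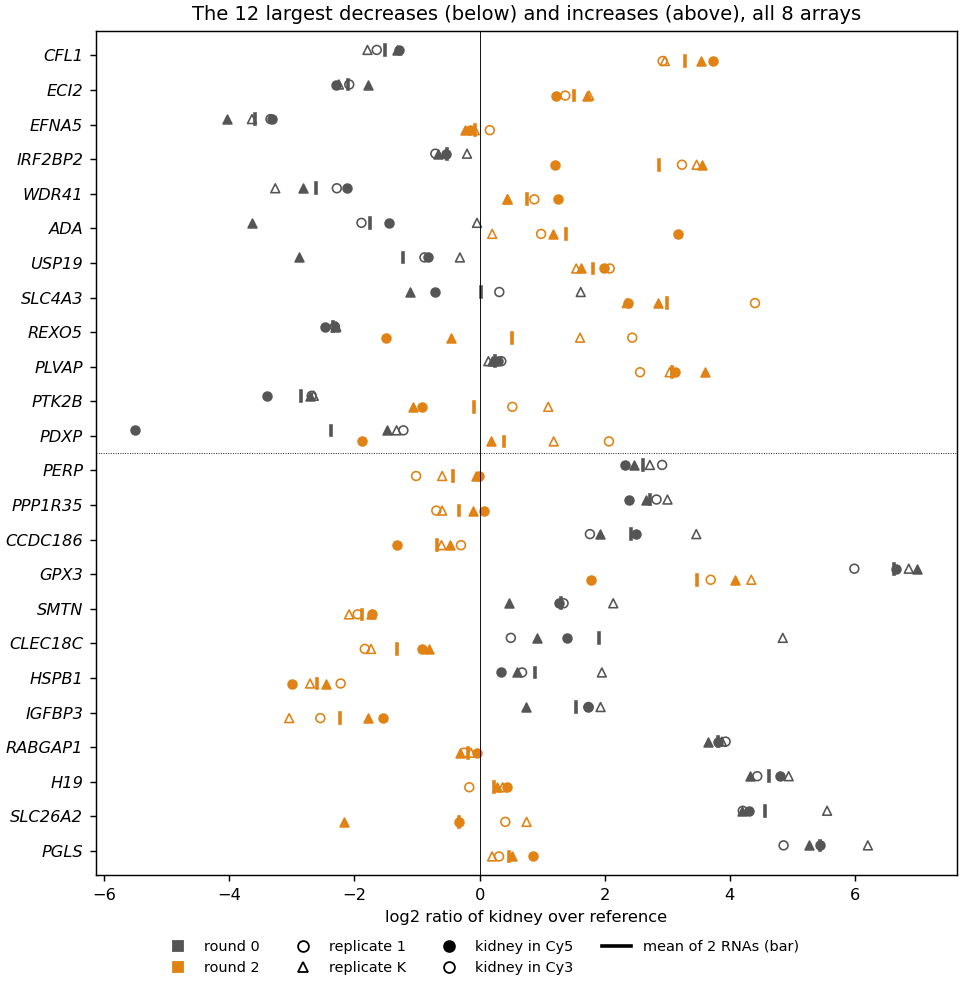
Log2 ratio of kidney over reference (x axis) on each of the 8 arrays for the 12 largest increases (upper rows) and the 12 largest decreases (lower rows) among called features with values on all 8 arrays; grey marks are round 0, orange marks round 2, circles replicate 1, triangles replicate K, filled marks kidney in Cy5, open marks kidney in Cy3, and bars the means of 2 RNAs. The arrays of the rounds stand apart for 23 of the 24 genes, and those of PDXP overlap.

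Some genes were named through a gene group although an array lacked their value. GALT, the galactose-1-phosphate uridylyltransferase of galactose breakdown, had no value on the round 0 arrays with kidney in Cy5 and read -4.18 and -3.68 on those in Cy3. It read 0.83, -0.34, 0.34 and -0.27 at round 2, and the rise was 4.07 (SE 0.32). FMOD, the collagen-binding proteoglycan fibromodulin, read -3.91, -3.89 and -3.90 on its 3 arrays of round 0 and -0.30, -1.01, -0.85 and -0.96 at round 2. The arrays of both genes do not overlap between rounds. HADHA, the alpha subunit of the mitochondrial trifunctional protein of beta-oxidation, rose by 3.68 (SE 0.71), but its round 0 arrays ran from -4.47 to 0.56. Its difference was 5.0 with kidney in Cy3 and 0.71 in Cy5, and round 0 replicate K had a value only in Cy3. TRIB3, a stress-induced pseudokinase, rose by 3.79 (SE 0.67), with round 0 arrays from -3.42 to 0.24. The other clones of GALT and TRIB3 gave 0.91 (SE 0.34) and 1.00 (SE 0.85), not called. HADHA lost its call without any 1 of the 4 RNAs, TRIB3 without round 2 replicate 1 or either RNA of round 0, and GALT with arrays not centred.

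A clone is a separately spotted piece of cDNA, so that genes with several clones show whether pieces of the same transcript moved together. Among the 905 genes with at least 2 tested clones, 191 had a called clone, and for 176 of them exactly 1 clone was called. In 6 genes every tested clone was called in 1 direction. In 7 genes clones were called in opposite directions. Of all features tested, 4.39% were called higher and 6.79% lower. How many genes would show such counts if their clones were unrelated was not tested. Over the 756 genes with exactly 2 clones, ratios of the pair correlated at 0.605 at round 0 and at 0.484 at round 2, while their differences between rounds correlated at 0.206. The median gap between the clones of a gene was 0.405 at round 0, 0.458 at round 2 and 0.565 for the difference. These are descriptions over genes. Among the 24 genes named for the largest changes, 9 had another tested clone; of these 12 other clones, 2 were called in the same direction and 0 in the opposite one.

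H19, the imprinted long noncoding RNA that lies beside IGF2, fell in both of its clones. The first read 4.80, 4.44, 4.32 and 4.94 on the arrays of round 0 and 0.44, -0.16, 0.28 and 0.37 on those of round 2. The second read 4.11, 3.76, 3.77 and 4.09 and then 2.67, 1.88, 2.53 and 1.83. The clones stood close at round 0 and apart at round 2, where the second stayed well above the array median. Their differences were -4.39 (SE 0.20, adjusted p = 0.0009 by limma) and -1.70 (SE 0.23, adjusted p = 0.013 by limma). The means at rounds 1 and 3 were 0.13 and 0.11 for the first clone and 2.53 and 1.97 for the second. The second clone lost its call when any 1 of the 4 RNAs was left out.

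Concordant decreases were also found for SERBP1, a messenger RNA binding protein, and CYB5B, the cytochrome b5 of the outer mitochondrial membrane. The SERBP1 clones went from -0.82 and -0.61 to -2.12 and -2.25, and from -0.63 and -0.72 to -1.92 and -2.10. Concordant increases were found for FKBP1A, the prolyl isomerase bound by tacrolimus, PMF1, a kinetochore protein, and IRF2BP2, a transcriptional corepressor. The FKBP1A clones rose by 1.49 (SE 0.36) and 1.68 (SE 0.37), and those of PMF1 by 0.86 (SE 0.21) and 1.98 (SE 0.40). The IRF2BP2 clones rose by 1.05 (SE 0.23) and 3.39 (SE 0.69). The smaller of these rises was 1.94 with kidney in Cy5 and 0.16 in Cy3, and its arrays overlapped between rounds. MBP, the myelin basic protein gene, whose locus also yields transcripts outside the nervous system, rose in 2 of its 3 clones. The first, which lacked a value on at least 1 array, rose by 5.88, from -4.0 and -3.95 to 2.54 and 1.26. The next went from 1.98 and 2.05 to 3.16 and 3.00, and the last gave a difference of 0.07 (SE 0.81). The MBP clone that began at 1.98 and 2.05 rose by 1.67 with kidney in Cy5 and 0.45 in Cy3, with overlapping arrays. The calls of these 6 genes were lost when any 1 of the 4 RNAs was left out.

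PEG3, an imprinted zinc finger gene, had 7 tested clones, of which 2 were called lower. They went from 2.05 and 2.39 to 0.17 and 0.14, and from 1.70 and 1.79 to 0.21 and 0.26. The other 5 gave differences from -0.82 to 1.05, none called. The PEG3 clones that fell were those highest above the array median at round 0. The call of -2.06 was lost without round 0 replicate K and without either RNA of round 2, and that of -1.51 without any 1 of the 4.

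Opposite calls took 3 main forms. PECAM1, the endothelial adhesion molecule CD31, fell in one clone from 3.09 and 3.57 to 0.06 and 1.44 and rose in another from 0.89 and 1.04 to 1.92 and 2.35. The clones thus changed places. TCF7L1, a repressor of Wnt target genes, fell by 2.78 (SE 0.38) and 1.73 (SE 0.23) in 2 clones and rose by 0.89 (SE 0.21) in the third. ANXA8L1, an annexin that binds membrane phospholipids, rose by 2.39 (SE 0.39) and 2.86 (SE 0.38) in 2 clones and fell by 1.66 (SE 0.20) in the third. DYNC1H1, the heavy chain of cytoplasmic dynein, gave -1.91 (SE 0.27) and 1.42 (SE 0.32), and another clone gave 0.40 (SE 0.48), not called. DUSP16, a phosphatase of MAP kinases, gave -1.26 (SE 0.26) and 1.23 (SE 0.22), and another clone gave -0.18 (SE 0.31), not called. LRATD1 gave -1.39 (SE 0.23) and 1.28 (SE 0.23), and ZCCHC8, a zinc knuckle protein of nuclear RNA turnover, -0.84 (SE 0.20) and 1.39 (SE 0.31). Clones were assigned to genes through the annotation given with the array, and whether a clone reads its gene alone was not tested. These 16 calls were each lost without round 2 replicate 1, and 13 of them also without round 0 replicate K.

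**Figure D4:**
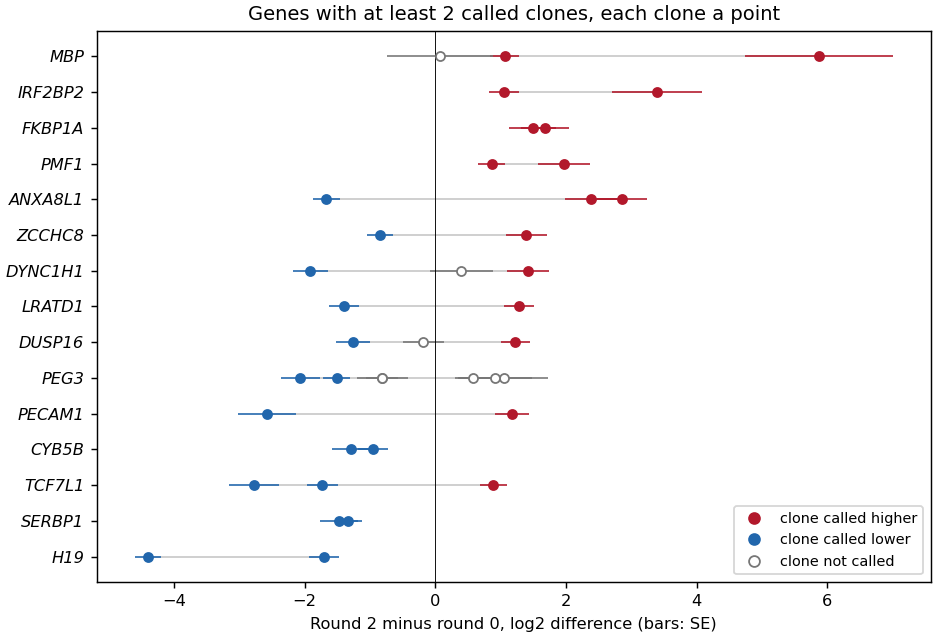
Difference between rounds 2 and 0 on the log2 scale (x axis, bars are SE) for each tested clone of the 15 genes with at least 2 called clones; red points are clones called higher, blue points clones called lower and open points clones not called. The clones of H19, SERBP1 and CYB5B lie together below 0, those of PMF1, FKBP1A and IRF2BP2 above 0, and those of the 7 genes with opposite calls on both sides.

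Among 16 tested features of the proximal tubule (14 genes), 3 were called higher and 4 lower, 43.8% against 11.2% over all features. The list included GPX3, GIPC2 and SLC27A2, known from earlier results of these data to have changed, so the share is a description. The median difference of the list was -0.53, with 6 of 16 differences above 0, against 0.01 over all features; the median ratio was 3.14 at round 0 and 3.20 at round 2. GPX3, the plasma glutathione peroxidase that the proximal tubule secretes, read 6.65, 5.99, 7.0 and 6.86 on the arrays of round 0 and 1.78, 3.69, 4.09 and 4.34 on those of round 2. It stayed above the array median on every array, and fell by 3.15 (SE 0.53, adjusted p = 0.021 by limma). GIPC2, a PDZ domain protein, went from 3.57 and 3.98 to 0.23 and 0.64, with no value on the round 0 replicate K array in Cy3. Without round 2 replicate 1 both lost their call, and GPX3 also did without either RNA of round 0.

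FOLR1, the folate receptor that recovers folate from the filtrate, rose from 0.58 and 0.59 to 2.50 and 4.15. SLC27A2, a fatty acid transporter and very long-chain acyl-CoA synthetase, rose from 1.57 and 1.78 to 3.04 and 3.13. SLC7A7, a cationic amino acid exchanger of the basolateral membrane, rose from 3.06 and 2.63 to 4.10 and 4.06. These transporters and the receptor were above the array median before and further above it after amplification. DAB2, the endocytic adaptor of megalin, fell from 2.86 and 2.93 to 1.18 and 1.54, and 1 of 2 clones of MME, the peptidase neprilysin, fell from 3.29 and 3.47 to 1.91 and 2.05. The other MME clone gave -3.05 (SE 0.84) and was not called. SLC7A7, DAB2 and MME were chosen for naming after their values were seen. Without round 2 replicate 1 only 1 higher and 0 lower calls remained in the tubule list, and with arrays not centred 0 higher and 2 lower.

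The distal nephron and collecting duct list, 21 features of 13 genes, gave 1 call (4.76%, against 11.2% over all features). CA12, a membrane carbonic anhydrase, fell in that clone from 1.75 and 1.89 to -0.55 and -1.04, while its other clone gave 0.54 (SE 0.44). The clone that fell had no value on the round 0 replicate K array in Cy3. Without round 0 replicate K or either RNA of round 2 the CA12 call was lost. Calbindin-D9k (S100G), the calcium buffer of the distal tubule, gave -0.28 (SE 0.42) and -0.56 (SE 0.28) in 2 clones. AQP3, the basolateral water channel of collecting duct, gave 0.35 (SE 0.25), 0.12 (SE 0.25) and 1.49 (SE 0.54) in 3. SCNN1A, the alpha subunit of the epithelial sodium channel, gave -1.12 (SE 0.31). None of the S100G, AQP3 and SCNN1A features passed the test; these 3 genes were chosen as familiar segment markers after their values were seen.

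Of 14 features of glomerulus and vessel wall, 3 were called higher and 2 lower (35.7%, against 11.2% over all features). PLVAP, which forms the diaphragms of fenestrated capillaries, read 0.29, 0.35, 0.20 and 0.14 on the arrays of round 0 and 3.12, 2.56, 3.61 and 3.04 on those of round 2. The groups stand far apart, and the rise was 2.84 (SE 0.45, adjusted p = 0.019 by limma). CDH5, the adhesion protein VE-cadherin of endothelial junctions, moved the other way, from 1.72 and 1.67 to -0.21 and -0.04. ACTN4, an actin crosslinker of podocyte foot processes, rose by 1.24 (SE 0.30) with overlapping arrays. TEK, the endothelial angiopoietin receptor, named after its values were seen, read 3.90 and 3.72 and then 3.50 and 4.21, and was not called. The endothelial genes of the list thus did not move as a group. Without either RNA of round 0, or without round 2 replicate 1, 0 features of the list were called, and without round 2 replicate K 1 was, lower.

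Markers of other cells the tissue could hold are given for comparison, beside a share of 11.2% called over all features. Of 22 immune cell features, 0 were called higher and 1 lower (4.55%), namely a clone of IKZF3, a lymphocyte transcription factor, at -4.18 (SE 0.81). That clone had no value on the round 0 arrays with kidney in Cy3. On the arrays of round 2 it read -2.33, 1.00, -0.87 and -0.21. The other IKZF3 clone gave 0.70 (SE 0.37). No feature of the blood list was tested. Among 38 trophoblast and placenta features, 2 rose (5.26%), PRP6, a prolactin-related protein, by 1.40 (SE 0.21) and 1 clone of PAG11, a pregnancy-associated glycoprotein, by 1.97 (SE 0.43). Among 39 extracellular matrix and fibroblast features, 4 rose and 3 fell (17.9%). CD44, the hyaluronan receptor, went from -3.18 and -3.33 to -0.25 and -1.20. MGP, an inhibitor of calcification, went from 5.81 and 5.63 to 4.14 and 4.54, and DES, the muscle intermediate filament desmin, from -0.08 and -0.59 to -2.17 and -1.68 in 1 clone. The other clones gave 1.27 (SE 0.32) for CD44 and 0.07 (SE 0.53) for DES, not called, and the other 3 of PAG11 from -0.64 to 0.79, not called. The calls named here were lost when any 1 of the 4 RNAs was left out, except that PRP6 kept its call without round 0 replicate 1. The part of other cells' RNA in the differences was not tested.

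The imprinted genes and the insulin-like growth factor axis, which governs growth of fetal and adult tissue, gave 9 lower and 2 higher calls among 36 features of 19 genes (30.6%). Over all features 6.79% were called lower and 4.39% higher. The list had a median difference of -0.65 against 0.01 over all features, and it held H19, known from earlier results to have fallen. IGFBP3, the main carrier of insulin-like growth factors in plasma, read 1.73, 1.74, 0.74 and 1.93 on the arrays of round 0 and -1.54, -2.55, -1.78 and -3.04 on those of round 2. The arrays of this clone lie on opposite sides of the array median, a difference of -3.76 (SE 0.41, adjusted p = 0.009 by limma). The other IGFBP3 clones gave -0.57 (SE 0.21) and -1.23 (SE 0.37), neither called. The remaining decreases were in PEG3, PHLDA2, NAP1L5, IGFBP7 and IGF2R.

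IGF2, the growth factor itself, rose in 1 of 3 clones, from -1.38, -1.71, -1.58 and -1.22 to 0.87, 0.39, 0.68 and 0.52. The arrays of that clone do not overlap, and the rise was 2.09 (SE 0.24). Its other clones gave -0.66 (SE 0.40) and -2.05 (SE 0.66) and were not called. IGFBP6, a binding protein that prefers IGF2, rose by 2.19 (SE 0.53). Without either RNA of round 2 the calls of IGFBP3, IGF2 and IGFBP6 were lost, and that of IGFBP6 also without round 0 replicate 1. The median of the list was below 0 under each alternative, from -0.79 to -0.50, but its lower calls ranged from 1 without round 2 replicate 1 to 12 with arrays fitted singly.

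Immediate early genes are induced within minutes of a stimulus, and their messages are short-lived. In a list of these and of other stress genes, 11 of 73 features were called lower and 4 higher (20.5%). The share over all features was 11.2%, with 6.79% called lower and 4.39% higher. The decreases were in HSPB1, FOSB, GADD45A, BTG2, DDIT4, KLF2, ZFP36L1, EGR1, MCL1, DUSP1 and KLF4. FOSB, an AP-1 subunit, read 2.68, 2.67, 3.00 and 2.80 on the arrays of round 0 and 0.05, -0.58, 0.39 and -0.58 on those of round 2. HSPB1, a small heat shock protein, read 0.35, 0.68, 0.59 and 1.95 and then -3.00, -2.22, -2.46 and -2.71. Both genes had arrays that stood apart, with differences of -2.97 (SE 0.21) and -3.49 (SE 0.32). The other 3 HSPB1 clones gave -0.53 (SE 0.23), 0.58 (SE 0.23) and 0.88 (SE 0.41), none called. BTG1, an antiproliferative cofactor, and TRIB3 gave the largest increases; 1 clone of BTG1 rose by 1.89 (SE 0.33) and the other 2 gave -0.42 (SE 0.21) and -0.25 (SE 0.23). The median difference of the list was -0.17, against 0.01 over all features. Without round 2 replicate 1, 2 of its features were called lower and 0 higher.

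Splicing factors and heterogeneous nuclear ribonucleoproteins, which bind nascent transcripts and select splice sites, gave 13 lower calls and 1 higher among 77 features of 49 genes (18.2%), with a median difference of -0.29. All features together gave 6.79% lower and 4.39% higher calls (11.2%), with a median difference of 0.01. SNRNP70, the U1 snRNP protein that recognises 5′ splice sites, read 2.75, 2.58, 2.28 and 2.72 on the arrays of round 0 and -1.14, 0.62, -0.75 and 0.01 on those of round 2. The round 2 arrays scatter around the array median by dye, and all lie below those of round 0; the difference was -2.90 (SE 0.24). Its other clone gave 0.88 (SE 0.36) and was not called. SRSF1, a serine- and arginine-rich splicing factor, went from 0.13 and 0.01 to -1.41 and -1.84. PRPF31, a protein of the U4/U6 snRNP, was the exception among the calls: 1 of 3 clones rose by 1.71 (SE 0.20). The other lower calls were in HNRNPU, SRSF7, HNRNPH3, SRSF11, SNRPB2, HNRNPA2B1, SYNCRIP, TARDBP, SF3B1, SRSF6 and HNRNPH2. The list's median stayed below 0 under each alternative, from -0.41 to -0.29, but only 1 lower call remained when any of the 4 RNAs was left out, or with arrays not centred.

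Zinc finger proteins gave 4 lower and 1 higher call of 54 features (9.26%) with a median of -0.47; ZNF281 went from 0.09 and -0.38 to -1.86 and -2.51 in 1 clone, and the other gave -0.12 (SE 0.25), not called. Nuclear genes of oxidative phosphorylation gave 1 call each way among 53 features (3.77%), with 40 of the 53 differences above 0 and a median of 0.30; over all features 2794 of 5537 differences lay above 0, with a median of 0.01. NDUFA8, a complex I subunit, rose by 0.86 (SE 0.20) and NDUFA4L2 fell by 1.88 (SE 0.36). Cytosolic ribosomal proteins gave 2 higher calls of 56 (3.57%), RPS10 at 1.88 (SE 0.30) and RPL28 at 1.09 (SE 0.19), against a list median of -0.18. Over all features 11.2% were called, close to the zinc finger share. Each call named for these 3 families was lost when any 1 of the 4 RNAs was left out.

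In fatty acid oxidation, 2 of 31 features rose and 1 fell (9.68%, against 11.2% called over all features). The increases were ECI2 and HADHA, and the decrease 1 of 4 clones of FABP5, a fatty acid carrier, at -1.42 (SE 0.24). CPT1A, which commits fatty acids to the mitochondrion and was named after its values were seen, gave 0.86 (SE 0.25) and 0.80 (SE 0.34), not called. Central carbon metabolism gave 5 higher calls and 1 lower of 47 (12.8%): PGLS fell, and GALT and PKM, the muscle-type pyruvate kinase, had the largest increases, PKM from -2.17 and -2.30 to -0.56 and -0.42. GPX3 was the only call among 36 redox and detoxification features (2.78%). Chaperones gave 3 calls each way of 51 (11.8%, close to the share over all features). HSPA4, a nucleotide exchange factor of HSP70, fell by 1.66 (SE 0.35). The calls of PKM and HSPA4 were lost without any 1 of the 4 RNAs, and that of FABP5 without round 0 replicate K or either RNA of round 2.

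Solute carriers gave 8 higher and 5 lower calls of 79 (16.5%, against 11.2% over all features). SLC4A3, an anion exchanger, read -0.71, 0.31, -1.12 and 1.62 on the arrays of round 0 and 2.37, 4.40, 2.85 and 2.35 on those of round 2. SLC17A7, a vesicular glutamate transporter, read -1.55, -3.31, -1.54 and -3.10 and then 0.55, -0.25, -0.15 and -0.04. In both genes all round 2 arrays lie above all round 0 arrays; the rises were 2.97 (SE 0.46) and 2.40 (SE 0.20). The other SLC4A3 clone went the other way, from 0.48 and -0.19 to -1.64 and -1.10, and was not called. SLC2A3, a glucose transporter, fell by 1.78 (SE 0.22) in 1 clone, and the other gave -0.43 (SE 0.20), not called. Ion pumps, channels and ABC transporters gave 1 higher and 2 lower calls of 51 (5.88%). ABCC2, the apical organic anion pump of the proximal tubule, read 3.90, 2.51, 3.08 and 3.49 and then 0.44, 1.12, 1.43 and 0.94, and fell by 2.26 (SE 0.23). The single increase was in 1 of 3 clones of ATP6AP1, an accessory subunit of the proton pump. Without any 1 of the 4 RNAs the calls of SLC4A3 and ATP6AP1 were lost. That of SLC2A3 was lost without round 0 replicate K or either RNA of round 2, and that of ABCC2 without round 2 replicate 1.

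Cytoskeletal genes gave 6 higher and 5 lower calls of 91 (12.1%, against 11.2% over all features). CFL1 and MARCKS, a membrane-bound actin regulator, had the largest increases. MARCKS rose by 3.17 (SE 0.65) in a clone that lacked 2 of the 8 arrays and overlapped between rounds; its other clone gave -0.43 (SE 0.26). Small GTPases and their regulators gave 2 higher and 7 lower calls of 115 (7.83%). Proteasome and ubiquitin genes gave 8 and 7 of 109 (13.8%), with USP2 lower by 2.33 (SE 0.25). Vesicle coat and sorting proteins gave 5 each way of 108 (9.26%). That list also held SEC61A1, a channel of the endoplasmic reticulum membrane and not a coat protein, which went from 1.26 and 1.17 to -0.70 and -0.89. Translation factors gave 1 higher and 3 lower of 52 (7.69%), and the higher one, EEF1E1, had round 2 arrays at -1.77, 3.09, -0.55 and 0.96. Its Cy5 arrays did not lie above those of round 0 as a group. Mitochondrial ribosomal proteins gave 1 higher and 2 lower of 44 (6.82%), cell cycle genes 2 each way of 58 (6.90%), and histones 1 lower call of 11 (9.09%). The calls of MARCKS and EEF1E1 were lost without any 1 of the 4 RNAs, that of SEC61A1 without either RNA of round 2, and that of USP2 without round 2 replicate 1.

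**Figure D5:**
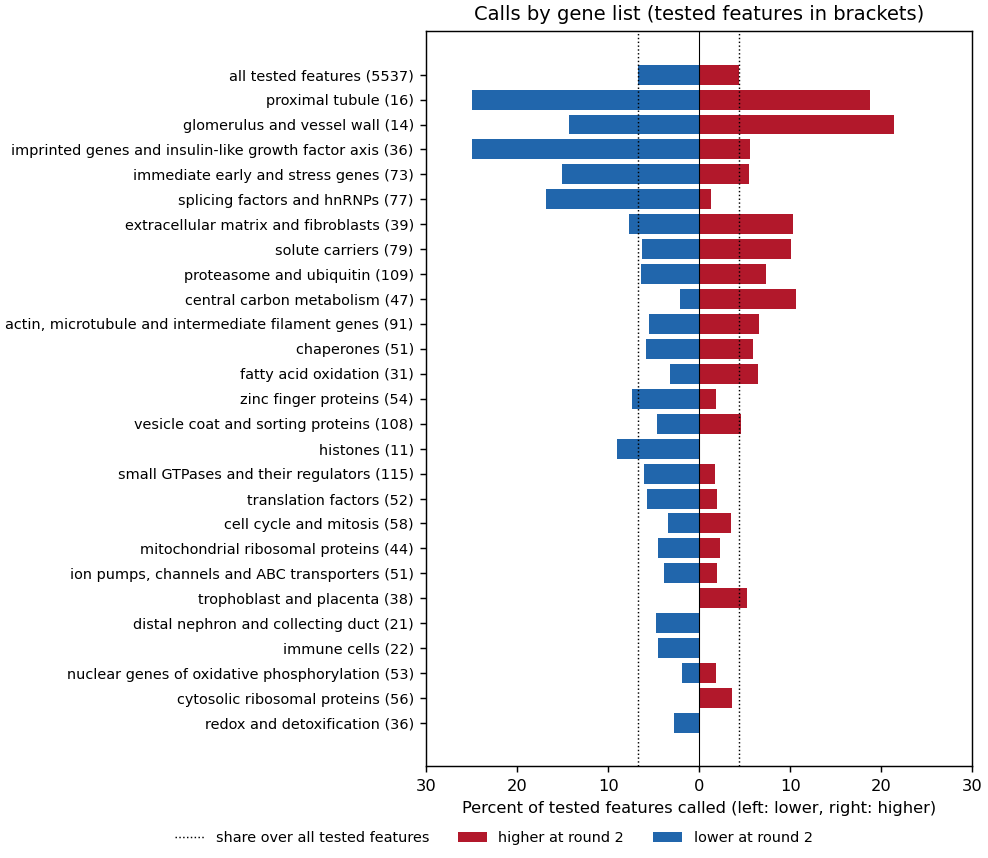
Percent of tested features called higher (right, red) and lower (left, blue) at round 2 for each gene list with at least 10 tested features, with the number of features in brackets and dotted lines at the shares over all 5537 features (4.39% higher, 6.79% lower). Lower calls pass that line most in the proximal tubule, imprinted, splicing and immediate early lists.

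Among the 619 calls, 18 passed in the same direction under each of 18 other settings, 6 of them higher and 12 lower. CFL1, ECI2, EFNA5 and SLC17A7 were among the 6, and PGLS, the first H19 clone, SMTN, PPP1R35, PERP, FOSB and SNRNP70 among the 12. RABGAP1 and FMOD passed under each of the 17 settings in which they could be tested. The round 0 columns differ from the others in how they were written: 3 decimals were given for 100% of their values and for 83.2% to 88.2% of those on the amplified arrays. A difference in processing and round 0 itself cannot be told apart here.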

How the data were processed

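The deposited values of the 8 arrays of rounds 0 and 2 are log2 ratios of 2 dyes, per the authors' value table. The round 1, replicate 1, Cy3 column, used only for the pooled spread, was also read as log2 ratios. As deposited, 52 of its numbers lie outside the range of log ratios, and these were left out. Whether these are a score computed by the authors before the values were deposited, and by which steps, is not given in the sources used. For the scanner, the background correction and the normalization, the steps taken are not given in the sources used. The number 16.61, a code for an undefined ratio, and other values beyond 10 in size were taken as missing. Arrays with kidney in Cy3 were turned, the median of listed features was set to 0 on every array, and duplicate spots and dye swaps were averaged. The reference was amplified for 2 rounds, per the labels' protocols.

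The annotation lists a gene for 5693 features (5598 with 1 symbol, 95 with several) and none for 2755; 5591 symbols were found, with the same spelling, among current RefSeq symbols. The 5537 features tested, for 4360 genes, had a listed gene and a value in both RNAs of every round. The fit was made by limma 3.58.1 in R 4.3.3, with a mean for each of rounds 0 to 3, 4 residual and 2.4 prior degrees of freedom, and Benjamini-Hochberg adjustment over all features at 0.05. The scripts were tested on simulated data. No intensities, sequences or coordinates were used; the number of arrays limits the precision.

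Named genes are, among features with 1 symbol, values on all 8 arrays, a call and no overlap between the RNAs, the 12 largest changes each way; genes with at least 2 clones called one way (10 largest each way) or in opposite ways; and the 2 largest calls each way of each list, with their other clones. Genes, lists and tests were chosen with earlier results of these data known. Lists were described by counts, with no test. Alternatives changed the centring, scale, value limit, spot and feature filters, rounds fitted, dye, variance model, replicate block and single RNAs or arrays.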

Additional observations from a re-analysis of the deposited data

Results flagged for a closer look

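The round 2, replicate 1 array with kidney in Cy5 stood apart from the other 3 arrays of round 2 in 2 measures. Its duplicate spots correlated at 0.541, against 0.792 to 0.838 on the others, and 172 of its spots carried the code for an undefined ratio, against 22 to 46. In all, 10 groups of 4 arrays were looked at and 2 stood out, both through that array; by the critical value used, chance flags about 1 in 20 groups. With that array left out, a setting chosen after seeing the data, 675 features were called against 619, of which 510 were shared.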

How the results depend on the processing

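Limits: each round has 2 RNAs, the spread is pooled over rounds, ratios carry no intensity so that dim spots could not be set aside, and the direction of the ratio is likely rather than stated. The counts are of features called, called higher, called lower, and called with at least a 2-fold change (619, 243, 376 and 554 in the fit reported). With arrays not centred they were 67, 24, 43 and 67. With only rounds 0 and 2 fitted they were 148, 63, 85 and 148. With 16 arrays, a dye term and RNA as a random block, the first 3 were 1244, 504 and 740. That fit counts the arrays of a dye swap about as separate replicates. With only arrays that had kidney in Cy5 they were 252, 118, 134 and 252. Without the round 1 replicate 1 Cy3 array, a setting chosen after seeing the data, they were 340, 139, 201 and 340. With 1 of the 4 RNAs left out they ranged from 24 to 175, from 9 to 89, from 15 to 86 and from 24 to 175; the lone RNA of a round was then assumed to vary like the other rounds, and the fewer samples lower the degrees of freedom. Otherwise the cause was not tested. With both duplicate spots required, the median size of the difference was 0.504 against 0.539. EEF1E1 turned from 1.38 to -0.15 with kidney in Cy5 only. The other 113 features that met the naming rules kept their direction under each setting in which they had a value. With only arrays that had kidney in Cy3 the median difference of all features tested was -0.12 against 0.01. With the replicate block 521 features passed, 476 of them shared; whether 1 and K mark the same source across rounds is not stated, and residuals correlated over 0.1 in 1 of 6 pairs of rounds (0.169, rounds 2 and 3).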
